A study of Mus musculus with 10 samples.

Results

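Metastasis and primary tumour libraries were compared in tumour numbers 35 and 36 of a mouse pancreatic cancer model, which supplied 4 of the 10 RNA-sequencing libraries of the study. The 2 metastasis libraries came from cell lines named Met35 and Met36, grown out from liver metastases that followed injection of the Ink4a.1 pancreatic cancer line into the pancreas. The 2 primary libraries, labelled primary 35 and 36, carry the cell line label Ink4a. All 4 were from the FVB strain background, were cultured without treatment to 90% confluence and were sequenced after polyA selection. The other 6 libraries are 3 metastasis and 3 primary libraries of numbers 25, 38 and 72. The design text names metastases of 4 mice while the labels give 5 numbers, and no label tells if the primary libraries were separate tumours, separate animals or repeat cultures of the parental line. Spread between libraries may therefore be technical, and p-values measure that spread alone. Numbers 35 and 36 were chosen by measured values, namely the near absence of leukocyte transcripts in their 4 libraries, and the genes described first were selected on their own difference in this comparison, so their values here are a description with no test.

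Hbegf encodes heparin-binding EGF-like growth factor, a membrane-anchored ligand of the EGF receptor that proteases shed from the cell surface and that binds heparan sulphate. Glypican-4, encoded by Gpc4, is one of the lipid-anchored core proteins that carry heparan sulphate chains and hold growth factors, Wnt and BMP ligands among them, at the cell surface. Msx3 belongs to the Msx homeobox family of transcriptional repressors, which act downstream of BMP signals in the embryo. Pancreatic tumour cells are known to move between epithelial and mesenchymal states, and plasminogen activators, collagen cross-linking enzymes and integrins take part in their interaction with matrix.

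The deposited values were FPKM (fragments scaled to transcript length and library size), and the smallest values put the depth of the 4 libraries at 24.5 to 27.2 M fragments. Differences are metastasis minus primary on the log2(FPKM + 1) scale, which understates the change of low genes, and 12158 genes were tested, those that reached 1 FPKM in 2 or more of the 4. Correlations of log2 values ran from 0.963, between metastasis 36 and primary 35, to 0.979, between metastasis 35 and primary 36, so libraries of 1 group were not closer to each other than to the other group throughout. Cdkn2a, the Ink4a locus gene, and its neighbour Cdkn2b were listed at 0 in all 4 libraries. The defining epithelial genes were close to 0, with Cdh1 at most 0.291 FPKM and Epcam at most 0.0610 FPKM, while the mesenchymal filament gene Vim had 5443 and 6667 FPKM in the metastasis libraries and 6158 and 5776 FPKM in the primary libraries. Leukocyte markers summed to 3.71 and 2.73 FPKM in the metastasis libraries and 2.52 and 3.09 FPKM in the primary libraries, with 6 of 16 markers at 0 in all 4. Fibroblast and stellate markers summed to 761 and 837 FPKM in the metastasis libraries and 1070 and 769 FPKM in the primary libraries. Primary 35 was high in some of this list and not in others. Lum, a matrix proteoglycan gene of fibroblasts, had 30.3 FPKM there and at most 0.225 FPKM in the other 3, and Pdgfrb, a receptor of stromal cells, had metastasis values of 3.37 and 3.75 FPKM and primary values of 13.9 and 4.09 FPKM, while Fap was at 0 in all 4. Of the 9 genes of this list tested, 6 were highest in primary 35, and Col1a1, Col3a1 and Postn were not. Col1a1, a chain of collagen I, had 158 and 170.4 FPKM in Met35 and Met36 against 149 and 149 FPKM in the primary libraries. Col3a1, the chain of collagen III, had 113 and 86.9 FPKM in metastasis 35 and 36 against 103 and 110.1 FPKM in primary 35 and 36, and Postn, which encodes periostin, had 0.407 and 25.3 FPKM in the metastasis libraries and 1 and 0.158 FPKM in the primary libraries, so that Postn was highest in metastasis 36. In these bulk libraries, fewer cells of a type and less RNA per cell cannot be told apart.

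Few genes passed a test with 2 libraries a side. With limma and Benjamini-Hochberg adjustment, 3 of 12158 genes (0.0247%) had an adjusted p under 0.05, 2 higher and 1 lower in metastasis, and 721 had an unadjusted p under 0.05. All 3 are gene models of 102 to 138 exon bases that were listed at 0 in one group. Gm3625 had 8335 and 8248 FPKM in the metastasis libraries and was listed at 0 in both primary libraries, with a limma adjusted p of 3.26e-06. Snora2b, a small nucleolar RNA within Kansl2, had 9.12 and 8.78 FPKM in the metastasis libraries and was listed at 0 in both primary libraries, and AL928567.1, a microRNA model within Bahcc1, was listed at 0 in both metastasis libraries and had 30.3 and 19.3 FPKM in the primary libraries (limma adjusted p = 0.0262 for each). With the number as a block the count was 1. An exact 0 in this table can be a failed estimate, and reads of a host gene may be counted for such short models, so no fold is given for them. Gm3625 and AL928567.1 were named after their values were seen.

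Counts without a test describe the rest. Both metastasis values lay above both primary values in 2813 genes (23.1%) and below them in 1877 genes (15.4%). Differences past 0.5 in the same direction in both numbers were fewer, with 127 genes higher (1.04%) and 149 genes lower (1.23%). The median difference over all genes tested was 0.02, and the SD of the pair differences over genes was 0.45 in number 35 and 0.41 in number 36. Primary 35 was the lowest library in 94 of the 127 higher genes (74.0%), a count that includes ties, namely genes listed at 0 in both primary libraries. It was the highest in 126 of the 149 lower genes (84.6%). The lower genes in particular were thus read against a library with high Lum, Dcn and Pdgfrb, though Col1a1, Col3a1 and Postn were not highest there. The part of such transcripts in these differences was not tested.

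Hbegf was higher, and Gpc4 and Msx3 were lower, in both metastasis libraries. Hbegf (chr18:36504927-36515805, minus strand) had 108 and 109.6 FPKM in metastasis 35 and 36, against 64.5 and 60.5 FPKM in primary 35 and 36, which gave pair differences of 0.73 and 0.85. Gpc4 (chrX:52053021-52165252, minus strand) had 1.46 and 1.43 FPKM in the metastasis libraries and 8.2 and 7.18 FPKM in the primary libraries, with pair differences of -1.91 and -1.75. Msx3 (chr7:140046157-140049089, minus strand) had 1.89 and 1.74 FPKM in the metastasis libraries and 5.56 and 5.36 FPKM in the primary libraries, with pair differences of -1.18 and -1.22. In each of these genes the groups did not overlap, and the 2 libraries of a group lay closer together than the groups did. The mean differences with their standard errors (limma, n = 2 a side) were 0.79 ± 0.10 for Hbegf, -1.83 ± 0.15 for Gpc4 and -1.20 ± 0.15 for Msx3. These genes were chosen for this difference, so the separation and the standard errors are a description and no support. Coordinates are of GRCm38.

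The other 6 libraries, which the choice of these genes did not use, gave the same direction in 1 of the 3. Msx3 had 6.14, 4.65 and 7.07 FPKM in metastasis 25, 38 and 72 and 16, 17.9 and 12.8 FPKM in primary 25, 38 and 72, again with no overlap, and its difference of -1.26 had an exact two-sided permutation p of 0.1, the smallest that 3 against 3 allows. Hbegf ranged widely there, with 10.7, 40.4 and 196 FPKM in the metastasis libraries against 93.1, 113 and 26.8 FPKM in the primary libraries, a difference of -0.55 (exact permutation p = 0.7). Gpc4 had 26.6, 16.7 and 8.42 FPKM in the metastasis libraries against 9.07, 9.37 and 16.1 FPKM in the primary libraries, a difference of 0.46 (exact permutation p = 0.6). The metastasis and primary values of Hbegf and Gpc4 overlapped in those numbers. The 2 metastasis libraries of numbers 35 and 36 held the lowest Gpc4 and the lowest Msx3 values of all 10 libraries.

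**Figure D1:**
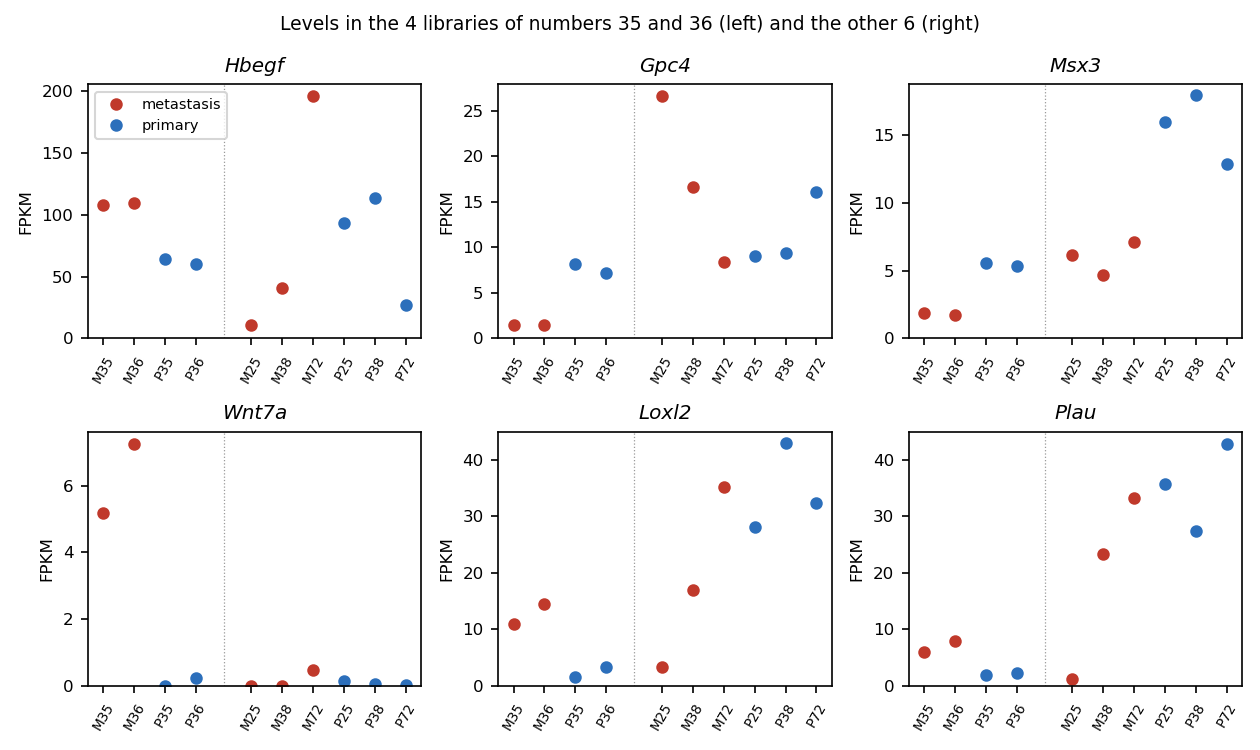
FPKM of 6 genes in each of the 10 libraries, on linear axes from 0, with metastasis libraries (M) in red, primary libraries (P) in blue, and the tumour number after the letter. Left of the dotted line, Hbegf, Wnt7a, Loxl2 and Plau were higher and Gpc4 and Msx3 lower in M35 and M36 than in P35 and P36; right of it, Msx3 alone of the 6 separated the groups in the same direction.

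By the size of the gap between the groups, the 12 higher named genes included secreted and matrix-acting products. Wnt7a, a secreted Wnt ligand (chr6:91363981-91411363, minus strand), had 5.16 and 7.25 FPKM in metastasis 35 and 36 against 0 and 0.222 FPKM in primary 35 and 36, whereas none of the 6 remaining libraries exceeded 0.481 FPKM. Plau, the plasminogen activator urokinase (chr14:20836660-20843385, plus strand), had metastasis values of 5.88 and 7.93 FPKM and primary values of 1.85 and 2.29 FPKM, pair differences of 1.27 and 1.44. In both genes, each metastasis value lay above each primary value of these numbers.

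Loxl2, a lysyl oxidase family enzyme that cross-links collagen (chr14:69609068-69695834, plus strand), had 11 and 14.4 FPKM in Met35 and Met36 against 1.56 and 3.33 FPKM in the primary libraries, with pair differences of 2.23 and 1.83. Wisp1, a matricellular protein of the CCN family, had 27.1 and 12.7 FPKM in metastasis 35 and 36 against 5.64 and 5.33 FPKM in primary 35 and 36, and Ccdc80, a secreted matrix protein, had 28.4 and 28.7 FPKM in the metastasis libraries and 14.4 and 14.4 FPKM in the primary libraries. Ccdc80 was among the most even within groups, and Wisp1 was uneven because metastasis 35 was higher than metastasis 36. Tnfrsf21, also known as death receptor 6, had metastasis values of 11 and 8.45 FPKM and primary values of 0.98 and 3.4 FPKM, and Cbr3, a carbonyl reductase, had 3.52 and 4.62 FPKM in Met35 and Met36 against 1.02 and 0.65 FPKM in the primary libraries. All of these separated the groups, and Tnfrsf21 had its 2 primary values furthest apart, with primary 35 the lower.

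Of the 12, 3 are short RNAs listed at 0 in both primary libraries: Snora2b, Snora78, with 17.8 and 34.4 FPKM in the metastasis libraries, and Mir8114, with 127 and 581 FPKM in the metastasis libraries. They lie within or beside Kansl2, Rps2 and Glul, whose reads may be counted for them. The 12th gene by gap was Ccdc80, at 0.93, and the next, outside the rule, was Snora64, at 0.91.

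**Figure D2:**
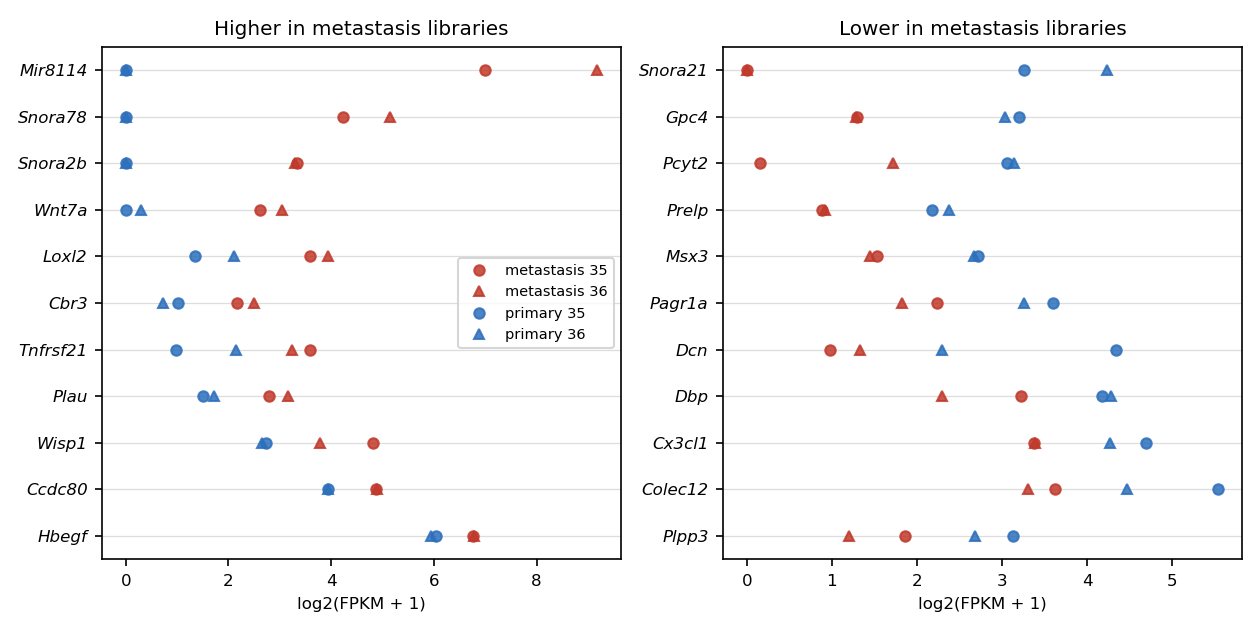
Values on the log2(FPKM + 1) scale of 10 of the 12 higher genes and Hbegf (left) and 11 of the 12 lower genes (right) in metastasis 35 (red circle), metastasis 36 (red triangle), primary 35 (blue circle) and primary 36 (blue triangle). Red and blue do not overlap in any of these genes, which were chosen for that gap; Dcn and Colec12 show primary 35 above primary 36, while Gpc4, Msx3 and Prelp show the primary libraries close together.

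The 12 lower named genes included 3 proteoglycan genes, Gpc4, Prelp and Dcn, and several of secreted or surface proteins. Prelp, a small leucine-rich proteoglycan (chr1:133910304-133921414, minus strand), had 0.846 and 0.89 FPKM in metastasis 35 and 36 against 3.54 and 4.19 FPKM in primary 35 and 36. Dcn, which encodes decorin, a collagen-binding proteoglycan and a fibroblast marker (chr10:97479609-97518143, plus strand), had 0.973 and 1.52 FPKM in metastasis 35 and 36 against 19.3 and 3.92 FPKM in primary 35 and 36. Prelp was even within groups, whereas Dcn was far higher in primary 35 than in primary 36, so its pair differences were -3.36 and -0.96. The scavenger collectin Colec12 had 11.3 and 8.87 FPKM in the metastasis libraries and 45.6 and 21.2 FPKM in the primary libraries. Of these 4 libraries, Dcn and Colec12 were highest in primary 35. The fibroblast and stellate genes Lum and Pdgfrb were also highest there, while Col1a1, Col3a1 and Postn were not. Whether fibroblast transcripts moved the values was not tested.

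Cx3cl1, the membrane-bound chemokine fractalkine, had metastasis values of 9.4 and 9.51 FPKM and primary values of 25 and 18.3 FPKM. Plpp3, a surface phosphatase of lipid phosphates such as lysophosphatidic acid, had 2.63 and 1.3 FPKM in Met35 and Met36 against 7.73 and 5.42 FPKM in the primary libraries. Pcyt2, the rate-limiting enzyme of phosphatidylethanolamine synthesis, had 0.116 and 2.29 FPKM in metastasis 35 and 36 against 7.32 and 7.83 FPKM in primary 35 and 36, so that metastasis 35 was near 0 and metastasis 36 was not. Dbp, a clock-controlled transcription factor, had 8.3 and 3.92 FPKM in the metastasis libraries and 17 and 18.5 FPKM in the primary libraries, but its locus overlaps Sphk2. Pagr1a, a gene with the near-identical copy Pagr1b at the same place, had metastasis values of 3.71 and 2.54 FPKM and primary values of 11.1 and 8.59 FPKM and is uncertain for that reason. Snora21, a short RNA within Rpl23, was listed at 0 in both metastasis libraries and had 8.54 and 17.8 FPKM in the primary libraries. The 12th lower gene was Plpp3, at a gap of -0.82, and the next was Ypel3, at -0.77.

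Further genes were named after their values were seen, to show what else stood among the larger differences. Ptgs2, the inducible cyclooxygenase, had 52.9 and 64.9 FPKM in Met35 and Met36 against 31.9 and 29.2 FPKM in the primary libraries. Itga7, a laminin-binding integrin subunit, had 26.8 and 22.5 FPKM in metastasis 35 and 36 against 12.1 and 10.7 FPKM in primary 35 and 36. Each separated the groups with the 2 libraries of a group close together. On the lower side, Cd34, a sialomucin of progenitor and stromal cells, had 43.9 and 18.5 FPKM in the metastasis libraries and 111 and 70.3 FPKM in the primary libraries, and Vcan, the large proteoglycan versican, had metastasis values of 4.65 and 3.18 FPKM and primary values of 21.3 and 7.65 FPKM. The guidance ligand Slit2 had 5.09 and 3.33 FPKM in Met35 and Met36 against 15.7 and 8.08 FPKM in the primary libraries, and Sod3, an extracellular superoxide dismutase that binds heparan sulphate, had 5.61 and 2.36 FPKM in metastasis 35 and 36 against 15.5 and 8.85 FPKM in primary 35 and 36. The lower genes Vcan, Slit2 and Sod3 were highest in primary 35, whereas Zfpm2, a cofactor of GATA factors, was even, with 3.78 and 3.43 FPKM in the metastasis libraries and 6.93 and 6.62 FPKM in the primary libraries.

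**Figure D3:**
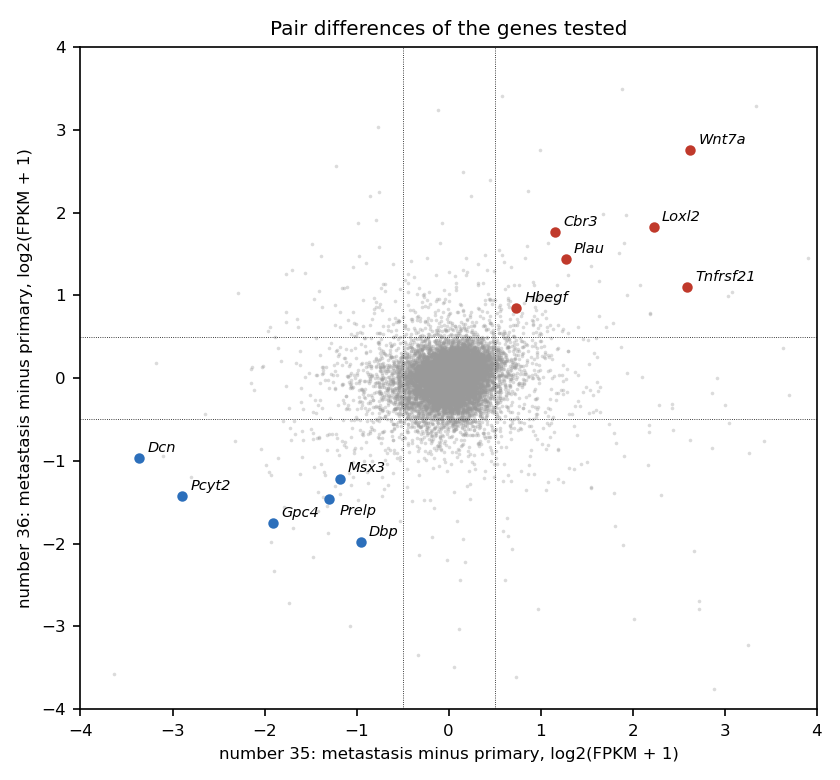
Pair difference of number 36 (vertical) against number 35 (horizontal), metastasis minus primary on the log2(FPKM + 1) scale, for the genes tested; each grey point is a gene, coloured points are named genes and dotted lines mark differences of 0.5. Genes such as Wnt7a, Loxl2 and Plau lie high in both numbers and Gpc4 and Pcyt2 low in both, while most genes lie near 0; 22 genes fall outside the axes.

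The set of genes that differed in both numbers mostly did not differ the same way in numbers 25, 38 and 72. There, limma gave 0 genes (0%) with an adjusted p under 0.05, 145 with an unadjusted p under 0.05 and an adjusted p of 1 for every gene. All 3 metastasis values lay above all 3 primary values in 222 genes (1.83%) and below them in 279 genes (2.29%). Of the 127 genes higher by over 0.5 in both numbers 35 and 36, 46 (36.2%) had a higher metastasis mean there, against 48.9% of all genes tested. Of the 149 lower genes, 43 (28.9%) had a lower metastasis mean there, against 50.8% of all genes tested. For the 12 higher named genes the count was 4 of 12 and for the 12 lower named genes it was 2 of 12. The opposite difference was seen for Plau, lower in metastasis in each of those 3 pairs, though the groups overlapped. It had 1.2, 23.3 and 33.3 FPKM in metastasis 25, 38 and 72 and 35.8, 27.4 and 42.9 FPKM in primary 25, 38 and 72. Loxl2 had 3.32, 16.9 and 35.1 FPKM in those metastasis libraries and 28.1, 42.9 and 32.4 FPKM in those primary libraries, with overlap. A limma test of the difference between the 2 sets of numbers called 2 of 12158 genes (0.0165%), Snora2b and AL928567.1, and 148 had an unadjusted p under 0.05. With the number as a block, and with a pseudocount of 0.1, it called 0 genes, with smallest limma adjusted p-values of 0.156 and 0.312, so neither short model is taken to differ between the sets.

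Gene lists were read by their counts and medians beside all genes, since no list was tested. Genes chosen for their difference here, such as Hbegf, Gpc4, Loxl2 and Cbr3, count in the lists that hold them by that choice. Over genes with 1 entry a symbol the shares without overlap were 23.1% higher and 15.4% lower, and the median difference was 0.02. In the EGF family, Hbegf, chosen for its difference here, was the single higher ligand of 5 tested. Nrg1, a ligand of the ERBB3 and ERBB4 receptors, was the single lower one, with metastasis values of 5.29 and 2.63 FPKM and primary values of 7.6 and 6.77 FPKM. The other 3 ligands overlapped between groups: amphiregulin (Areg) had 3.48 and 1.93 FPKM in Met35 and Met36 against 8.44 and 2.09 FPKM in the primary libraries, betacellulin (Btc) had 3.14 and 7.01 FPKM in metastasis 35 and 36 against 15.1 and 4.41 FPKM in primary 35 and 36, and epiregulin (Ereg) had 15.7 and 19.3 FPKM in the metastasis libraries and 22.1 and 13.1 FPKM in the primary libraries. Areg and Btc were high in primary 35 alone.

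Of 9 receptors, sheddases and regulators of the EGF family tested, 2 were higher and 3 lower without overlap. The EGF receptor gene Egfr did not reach the filter and was not among them. It had 0.268 and 0.129 FPKM in metastasis 35 and 36 against 0.259 and 0.0547 FPKM in primary 35 and 36. Erbb4, also not tested, was listed at 0 in both groups. Adam17, the protease known to shed the ligand from the membrane, differed little, with metastasis values of 13.9 and 13.7 FPKM and primary values of 13.2 and 12.8 FPKM. Errfi1, an inducible inhibitor of EGF receptors, had 179.9 and 126 FPKM in Met35 and Met36 against 125 and 118 FPKM in the primary libraries. Erbb3 had 0.785 and 1.19 FPKM in metastasis 35 and 36 against 1.5 and 1.48 FPKM in primary 35 and 36, and Cd9, a tetraspanin that associates with the membrane-anchored ligand, had 152 and 181 FPKM in the metastasis libraries and 232 and 185 FPKM in the primary libraries.

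The heparan sulphate core proteins tested numbered 7. Gpc4, chosen for its difference here, was the single one lower without overlap, and Sdc4 the single one higher without overlap. Syndecan-4 (Sdc4) had metastasis values of 113 and 99.8 FPKM and primary values of 74.2 and 87.7 FPKM. Syndecan-3 (Sdc3) was also lower in both pairs (-1.06 and -1.29), but its groups overlapped. It had 17.5 and 4.35 FPKM in metastasis 35 and 36 against 37.6 and 12.1 FPKM in primary 35 and 36. Gpc1, the most abundant glypican here, overlapped between groups, with 84.7 and 64.9 FPKM in Met35 and Met36 against 105 and 67.5 FPKM in the primary libraries, and so did Gpc6, with 4.72 and 2.32 FPKM in metastasis 35 and 36 against 2.03 and 2.33 FPKM in primary 35 and 36. Of 13 enzymes that build or edit the chains, 4 were higher and 2 lower. Sulf1, an extracellular sulphatase that removes sulphate groups from the chains, had 3.19 and 1.79 FPKM in the metastasis libraries and 0.959 and 0.443 FPKM in the primary libraries, while its relative Sulf2 had metastasis values of 71.3 and 48.7 FPKM and primary values of 83.5 and 74.7 FPKM. Hpse, the heparanase that cuts the chains, had 3.96 and 4.81 FPKM in Met35 and Met36 against 8.74 and 5.44 FPKM in the primary libraries. Sulf1 was thus higher and Sulf2 and Hpse lower in both metastasis libraries, Sulf1 from a low level.

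The Msx and Dlx homeobox list held 4 genes tested, of which Msx3 was chosen for its difference here, so no share is read from the list. Msx1, Dlx1 and Dlx2 were also lower without overlap. Msx1 had 1.83 and 2.7 FPKM in metastasis 35 and 36 against 3.28 and 4.64 FPKM in primary 35 and 36. Dlx1 had 1.83 and 0.569 FPKM in the metastasis libraries and 5.41 and 3.13 FPKM in the primary libraries, and Dlx2, its neighbour on chromosome 2, had metastasis values of 1.85 and 1.43 FPKM and primary values of 3.7 and 2.18 FPKM. These 4 genes stood between 0.569 and 5.56 FPKM in the 4 libraries, and Msx3 alone was lower without overlap in numbers 25, 38 and 72 as well. Of 14 BMP pathway genes, 2 were higher and 6 lower. Id2, a helix-loop-helix inhibitor that BMP signals induce, had 10.2 and 7.6 FPKM in Met35 and Met36 against 30.6 and 12.1 FPKM in the primary libraries, and Grem1, a secreted BMP antagonist, had 117 and 150.4 FPKM in metastasis 35 and 36 against 393 and 194 FPKM in primary 35 and 36. Bmp4, the ligand, had 6.64 and 12.2 FPKM in the metastasis libraries and 13.1 and 16.4 FPKM in the primary libraries, and Smad7, an inhibitory Smad, was among the higher genes with metastasis values of 28.8 and 32.1 FPKM and primary values of 26.5 and 20.3 FPKM. Primary 35 was far above the other 3 libraries in Id2 and Grem1.

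YAP and TEAD target genes were more often higher than lower. YAP is a co-activator restrained by the Hippo kinases, and with TEAD factors it switches on genes of growth and cytoskeletal tension. Of 19 targets tested, 9 were higher without overlap (against 23.1% of all genes) and 0 lower, with a median difference of 0.36; without primary 35 the counts were 12 higher and 1 lower, where the shares over all genes were 33.9% and 27%. Ankrd1, a cardiac ankyrin repeat protein widely used as a reporter of YAP activity (chr19:36111961-36120099, minus strand), had 397 and 507 FPKM in Met35 and Met36 against 225 and 270.4 FPKM in the primary libraries. Crim1, a transmembrane BMP-binding protein (chr17:78200248-78376592, plus strand), had 69.2 and 59.7 FPKM in metastasis 35 and 36 against 36.3 and 36.3 FPKM in primary 35 and 36, although its neighbour Fez2, which overlaps it, had 104 and 94.1 FPKM in the metastasis libraries and 54.1 and 55.5 FPKM in the primary libraries. Tgfb2, a TGF-beta ligand, had metastasis values of 2.8 and 3.89 FPKM and primary values of 1.37 and 0.925 FPKM, and the kinase Nuak2 had 5.71 and 5.02 FPKM in Met35 and Met36 against 2.05 and 3 FPKM in the primary libraries. Lats2, a Hippo kinase that acts back on YAP, had 20.4 and 24.8 FPKM in metastasis 35 and 36 against 17.4 and 17.3 FPKM in primary 35 and 36. Amotl2, an angiomotin that also restrains YAP, had 68.4 and 69.4 FPKM in the metastasis libraries and 43.9 and 60.2 FPKM in the primary libraries. The most used target genes did not separate the groups: Ctgf had metastasis values of 456 and 270.3 FPKM and primary values of 321 and 268 FPKM, and Cyr61 had 170.03 and 116 FPKM in Met35 and Met36 against 143 and 142 FPKM in the primary libraries. In numbers 25, 38 and 72, Ankrd1 had 9.14, 186 and 75.4 FPKM in the metastasis libraries and 39.9, 61.8 and 37.1 FPKM in the primary libraries, with overlap (exact permutation p = 0.9).

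**Figure D4:**
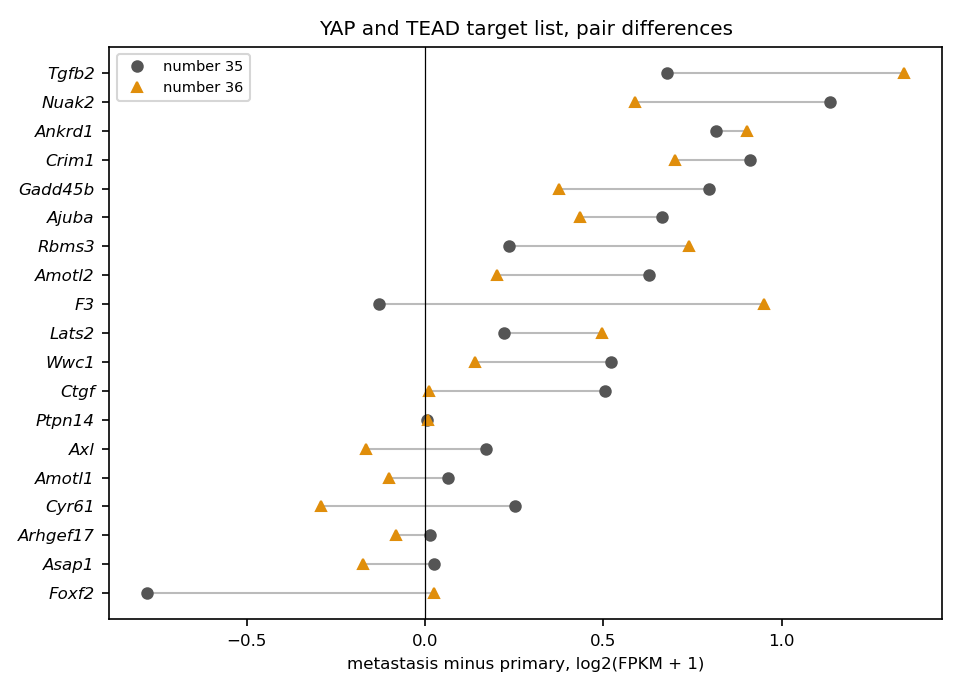
Metastasis minus primary difference on the log2(FPKM + 1) scale for number 35 (grey circle) and number 36 (orange triangle) of the 19 YAP and TEAD targets tested, ordered by mean difference. Ankrd1 (0.82 and 0.90) and Crim1 (0.91 and 0.70) lie well above 0 in both numbers; Cyr61 and Axl lie on either side of it, and Foxf2 is low in number 35.

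The promoters of 3 of these targets and of Gpc4 are shown because the targets were higher together in the metastasis libraries while Gpc4 was lower. Each is the RefSeq sequence of GRCm38.p6 from 250 bases before to 50 after the annotated start, 5′ to 3′ on the gene's strand, with the TEAD motif GGAATG, or CATTCC where it lies on the other strand, in capitals. For Ankrd1 and Gpc4 the start used lies inside the gene interval given above, and so does the whole window. The motifs were searched on both strands. Ankrd1 lies at chr19:36119795-36120094 on the minus strand, Ajuba, a LIM protein gene of the list, at chr14:54577612-54577911 on the minus strand, Crim1 at chr17:78199998-78200297 on the plus strand and Gpc4 at chrX:52164874-52165173 on the minus strand.
Ankrd1: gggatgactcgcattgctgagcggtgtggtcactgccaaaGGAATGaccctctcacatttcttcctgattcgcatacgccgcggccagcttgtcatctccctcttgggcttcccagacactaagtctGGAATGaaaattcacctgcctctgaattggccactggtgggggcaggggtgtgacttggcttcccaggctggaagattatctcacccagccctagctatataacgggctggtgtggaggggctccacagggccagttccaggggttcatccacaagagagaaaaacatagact
Ajuba: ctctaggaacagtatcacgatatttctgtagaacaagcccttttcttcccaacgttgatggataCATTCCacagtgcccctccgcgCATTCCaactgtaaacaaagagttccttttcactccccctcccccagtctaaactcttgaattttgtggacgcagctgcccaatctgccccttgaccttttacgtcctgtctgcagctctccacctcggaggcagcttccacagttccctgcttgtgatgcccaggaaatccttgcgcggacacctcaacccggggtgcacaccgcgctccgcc
Crim1: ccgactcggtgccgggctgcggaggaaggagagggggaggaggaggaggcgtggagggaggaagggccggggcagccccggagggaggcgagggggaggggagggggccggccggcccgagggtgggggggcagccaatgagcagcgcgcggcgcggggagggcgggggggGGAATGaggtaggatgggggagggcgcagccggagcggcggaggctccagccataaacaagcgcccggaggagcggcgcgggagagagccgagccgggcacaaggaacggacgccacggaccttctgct
Gpc4: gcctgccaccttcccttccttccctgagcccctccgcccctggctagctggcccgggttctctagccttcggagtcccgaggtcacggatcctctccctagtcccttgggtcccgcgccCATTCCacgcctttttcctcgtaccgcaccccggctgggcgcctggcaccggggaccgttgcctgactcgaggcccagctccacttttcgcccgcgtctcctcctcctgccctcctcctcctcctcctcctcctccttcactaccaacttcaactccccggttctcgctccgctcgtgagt

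Ankrd1 and Ajuba held 2 matches each, and Crim1 and Gpc4 held 1 each. Promoters not shown include those of Tgfb2, Gadd45b and Rbms3, also higher without overlap, and of Msx3, each with 0 matches. The motif was present in 14.7% of 32851 promoters of the same length, in 8 of 15 promoters (53.3%) of the targets tested and in 5 of 8 promoters (62.5%) of the targets that were higher without overlap. The list was drawn from known TEAD targets, and the share was not tested. A match describes letters in this window and is not a binding site. Ajuba itself had 28.2 and 29.3 FPKM in metastasis 35 and 36 against 17.4 and 21.4 FPKM in primary 35 and 36.

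Of 16 TGF-beta target genes, 4 were higher, among them Smad7 and Tgif1, and 1 was lower, with a median difference of 0.04. The transcriptional repressor Tgif1 had 70.4 and 70.7 FPKM in the metastasis libraries and 50.04 and 56.9 FPKM in the primary libraries, and Tgfbi, a secreted matrix protein, was the lower one with metastasis values of 7.34 and 11.3 FPKM and primary values of 24.4 and 14 FPKM. Although Wnt7a was higher, the 8 Wnt targets and regulators tested held 1 higher and 1 lower gene: Axin2, a target that reports Wnt signalling through beta-catenin, overlapped between groups, with 0.417 and 1.04 FPKM in Met35 and Met36 against 0.755 and 1.61 FPKM in the primary libraries. The Notch list of 7 genes also held 1 higher and 1 lower. Of 9 NF-kB targets and chemokines, 3 were higher and 0 lower, and Csf1, the macrophage growth factor, had 144 and 151 FPKM in metastasis 35 and 36 against 87.7 and 123 FPKM in primary 35 and 36.

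Of 17 genes of MAPK output and feedback, 4 were higher and 5 lower without overlap. Dusp5, a nuclear ERK phosphatase, had 70.3 and 77.2 FPKM in the metastasis libraries and 43 and 49.3 FPKM in the primary libraries, and Spry2, a feedback inhibitor of receptor signalling, had metastasis values of 31.1 and 34.9 FPKM and primary values of 23.3 and 23.1 FPKM. Fosl1, the AP-1 subunit FRA1, had 129.7 and 147 FPKM in Met35 and Met36 against 115 and 110.05 FPKM in the primary libraries. The lower members included the ETS factors Etv4 and Etv5 and cyclin D1: Ccnd1 had 638 and 639 FPKM in metastasis 35 and 36 against 767 and 755 FPKM in primary 35 and 36, which is a pair difference of -0.27 and -0.24. Dusp6 overlapped between groups, with 61.6 and 65.4 FPKM in the metastasis libraries and 64.5 and 71.2 FPKM in the primary libraries. Of 17 immediate early and stress genes, 6 were higher and 3 lower. Klf2, a shear- and stress-responsive zinc finger factor, had metastasis values of 8.59 and 15.6 FPKM and primary values of 5.85 and 7.6 FPKM, and Ier5 had 14.7 and 16.9 FPKM in Met35 and Met36 against 10.8 and 9.33 FPKM in the primary libraries. Egr1, which ERK signalling induces within minutes, had 10.3 and 15.5 FPKM in metastasis 35 and 36 against 17.1 and 17.9 FPKM in primary 35 and 36 and was among the lower genes.

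Plasminogen activation genes other than Plau included the urokinase receptor Plaur, with 191 and 148 FPKM in the metastasis libraries and 139 and 133 FPKM in the primary libraries, and tissue plasminogen activator Plat, with metastasis values of 0.809 and 1.05 FPKM and primary values of 2.6 and 1.65 FPKM. In all, 5 of 14 proteases and inhibitors were higher and 4 lower. Mmp2, a gelatinase, had 58.6 and 62 FPKM in Met35 and Met36 against 90.05 and 62.3 FPKM in the primary libraries, and was highest in primary 35. Of 29 collagen and matrix genes, 5 were higher and 5 lower, with a median difference of 0.03. Lox, the lysyl oxidase that cross-links collagen like Loxl2, had 186 and 162 FPKM in metastasis 35 and 36 against 92.6 and 104 FPKM in primary 35 and 36, and Nid2, a basement membrane nidogen, had 29 and 27.2 FPKM in the metastasis libraries and 5.57 and 15.3 FPKM in the primary libraries.

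Collagen VI chains were among the lower matrix genes. Col6a1 had metastasis values of 11.8 and 13 FPKM and primary values of 23.9 and 20.5 FPKM, and Col6a2 had 2.54 and 5.89 FPKM in Met35 and Met36 against 11.3 and 8.9 FPKM in the primary libraries. Spp1, which encodes osteopontin, had 773 and 564 FPKM in metastasis 35 and 36 against 2084 and 934 FPKM in primary 35 and 36. In the fibroblast and stellate list 1 of 9 genes tested was higher and 3 were lower, and primary 35 had the highest sum; the part of such transcripts in the lower matrix genes was not tested. Of 10 integrin genes, 2 were higher (Itga7 and Itga3) and 2 lower (Itga6 and Itgb4). Itga3 had 127 and 127 FPKM in the metastasis libraries and 67.8 and 106 FPKM in the primary libraries and was uneven between the primary libraries. Itga6, which pairs with Itgb4 in the laminin receptor of hemidesmosomes, had metastasis values of 60.7 and 45.5 FPKM and primary values of 82.9 and 67.6 FPKM. Itgb4 had 31.9 and 38.1 FPKM in Met35 and Met36 against 53.9 and 43.4 FPKM in the primary libraries, so both chains were lower in both metastasis libraries.

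The lines kept keratins without cadherin 1, and some epithelial genes differed. Of 8 epithelial genes tested, 3 were higher and 1 lower. Krt18 had 277 and 232 FPKM in metastasis 35 and 36 against 129.7 and 194 FPKM in primary 35 and 36, and its partner Krt8 had 312 and 246 FPKM in the metastasis libraries and 107 and 273 FPKM in the primary libraries, where primary 36 overlapped the metastasis values. Jup, which encodes plakoglobin, had metastasis values of 23 and 16.9 FPKM and primary values of 37.9 and 23.5 FPKM. Of 15 mesenchymal genes, 3 were higher, Loxl2, Cdh2 and Snai1, and 2 lower, Prrx1 and Tcf4. N-cadherin (Cdh2) had 55.3 and 63 FPKM in Met35 and Met36 against 51.3 and 49.2 FPKM in the primary libraries. Prrx1, a homeobox factor of mesenchyme, had 41.1 and 46.8 FPKM in metastasis 35 and 36 against 63.1 and 48.3 FPKM in primary 35 and 36. The pancreatic factors Pdx1 and Sox9 were both slightly lower in metastasis, with 15.7 and 15.4 FPKM in the metastasis libraries and 18.2 and 18.7 FPKM in the primary libraries for Pdx1, and metastasis values of 12.4 and 10.6 FPKM and primary values of 14.5 and 12.5 FPKM for Sox9. Mesothelin (Msln), a surface antigen of pancreatic cancer, had 172 and 258 FPKM in Met35 and Met36 against 74.9 and 165 FPKM in the primary libraries, and Myc had 95.6 and 92.5 FPKM in metastasis 35 and 36 against 73.5 and 90.7 FPKM in primary 35 and 36.

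Class I antigen presentation genes had a median difference of 0.40, with 5 of 16 higher and 1 lower. The heavy chain gene H2-K1 had 69.5 and 96.9 FPKM in the metastasis libraries and 50.7 and 60.5 FPKM in the primary libraries, and B2m, its light chain, had metastasis values of 899 and 1019.7 FPKM and primary values of 798 and 663 FPKM. Psmb8, a subunit of the immunoproteasome, had 1.47 and 11.8 FPKM in Met35 and Met36 against 0.243 and 0.884 FPKM in the primary libraries, so that most of its difference lay in metastasis 36. The transporter Tap1 likewise had 1.66 and 4.83 FPKM in metastasis 35 and 36 against 1.52 and 1.73 FPKM in primary 35 and 36. The median pair difference of the list was 0.13 in number 35 and 0.43 in number 36. Interferon-induced genes were split, with 3 of 10 higher and 2 lower and a median of -0.06. Class I genes share sequence with near-identical family members, so their separate values are uncertain.

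Of 20 enzymes of cholesterol synthesis 0 were higher and 2 lower without overlap, Dhcr7 and Tm7sf2, a share below the 15.4% of all genes. The metastasis mean was below the primary mean in 18 of the 20, against 45.4% of all genes, and the median difference was -0.31, without a test. Primary 35 was the highest of the 4 libraries in 16 of the 20. The enzymes summed to 972 and 632 FPKM in metastasis 35 and 36 against 1090 and 835 FPKM in primary 35 and 36. By this sum metastasis 36 was the lowest library, and metastasis 35 lay between the primary libraries. The part of primary 35 and of metastasis 36 in the lower means was not tested. The median pair difference was -0.17 in number 35 and -0.48 in number 36. Dhcr7, the last enzyme of the pathway, had 16 and 5.88 FPKM in the metastasis libraries and 18.6 and 18 FPKM in the primary libraries, and Hmgcs1, an early enzyme, had metastasis values of 59.8 and 32.5 FPKM and primary values of 75.9 and 58.4 FPKM, in which metastasis 35 overlapped the primary values. The desaturases Scd1 and Scd2, which make monounsaturated fatty acids, were lower without overlap, with 63.1 and 54.1 FPKM in Met35 and Met36 against 107 and 72.5 FPKM in the primary libraries for Scd1, and 143 and 93.7 FPKM in metastasis 35 and 36 against 195 and 162 FPKM in primary 35 and 36 for Scd2. Srebf1, the regulator of fatty acid synthesis, had 74.8 and 72.9 FPKM in the metastasis libraries and 108 and 95 FPKM in the primary libraries.

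Proliferation and damage-response lists held more lower than higher members, by small amounts. Of 28 cell cycle genes 1 was higher and 10 lower, with a median difference of -0.09. Over all genes the shares were 23.1% higher and 15.4% lower. Without primary 35 the cell cycle counts were 3 higher and 12 lower, where all genes gave 33.9% and 27%. In the other 6 libraries the median difference of this list was -0.72, against -0.01 over all genes. A lower median was thus not limited to numbers 35 and 36. Pcna, the sliding clamp of replication, had metastasis values of 97.6 and 90.6 FPKM and primary values of 129 and 101 FPKM. Lig1, the replicative ligase, had 27.1 and 22.2 FPKM in Met35 and Met36 against 34.2 and 33.3 FPKM in the primary libraries, and the proliferation marker Mki67 had 90.7 and 86.4 FPKM in metastasis 35 and 36 against 101 and 103 FPKM in primary 35 and 36. The mitotic genes Cdk1 and Ccnb1 overlapped between groups. Of 18 p53 targets, 0 were higher and 7 lower, with a median of -0.20, against 23.1% higher and 15.4% lower over all genes. Without primary 35 they were 5 higher and 10 lower, where all genes gave 33.9% and 27%, so the count of 0 higher depends on that library. Trp53inp1 had 0.745 and 0.714 FPKM in the metastasis libraries and 2.41 and 1.07 FPKM in the primary libraries, and Ccng1 had metastasis values of 38.1 and 46.6 FPKM and primary values of 63.9 and 46.9 FPKM. Cdkn1a, the cell cycle inhibitor p21, had 34.3 and 33.8 FPKM in Met35 and Met36 against 81.8 and 31.7 FPKM in the primary libraries, so its mean rested on primary 35 alone.

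Of 25 hypoxia and glycolysis genes 6 were higher and 2 lower, with a median of -0.02. The share higher was close to the 23.1% of all genes, and the share lower was below their 15.4%. The metastasis mean was higher in 11 of the 25 and lower in 14. Hexokinase 2 (Hk2) had 18.8 and 15.9 FPKM in metastasis 35 and 36 against 8.97 and 10.6 FPKM in primary 35 and 36, and Adm, the vasodilator peptide adrenomedullin, had 1.8 and 2.79 FPKM in the metastasis libraries and 0.353 and 0.97 FPKM in the primary libraries. Stress response genes split evenly, with 4 of 24 higher and 4 lower; Hspa5, the chaperone BiP, had metastasis values of 413 and 438 FPKM and primary values of 334 and 393 FPKM, and Vldlr, a lipoprotein receptor induced by stress, had 0.147 and 0.114 FPKM in Met35 and Met36 against 3.13 and 1.17 FPKM in the primary libraries. Vldlr was near 0 in both metastasis libraries. Of 16 NRF2 targets 1 was higher, Cbr3, which was chosen for its gap here, and 5 were lower, among them the pentose phosphate enzymes Tkt and Taldo1.

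**Figure D5:**
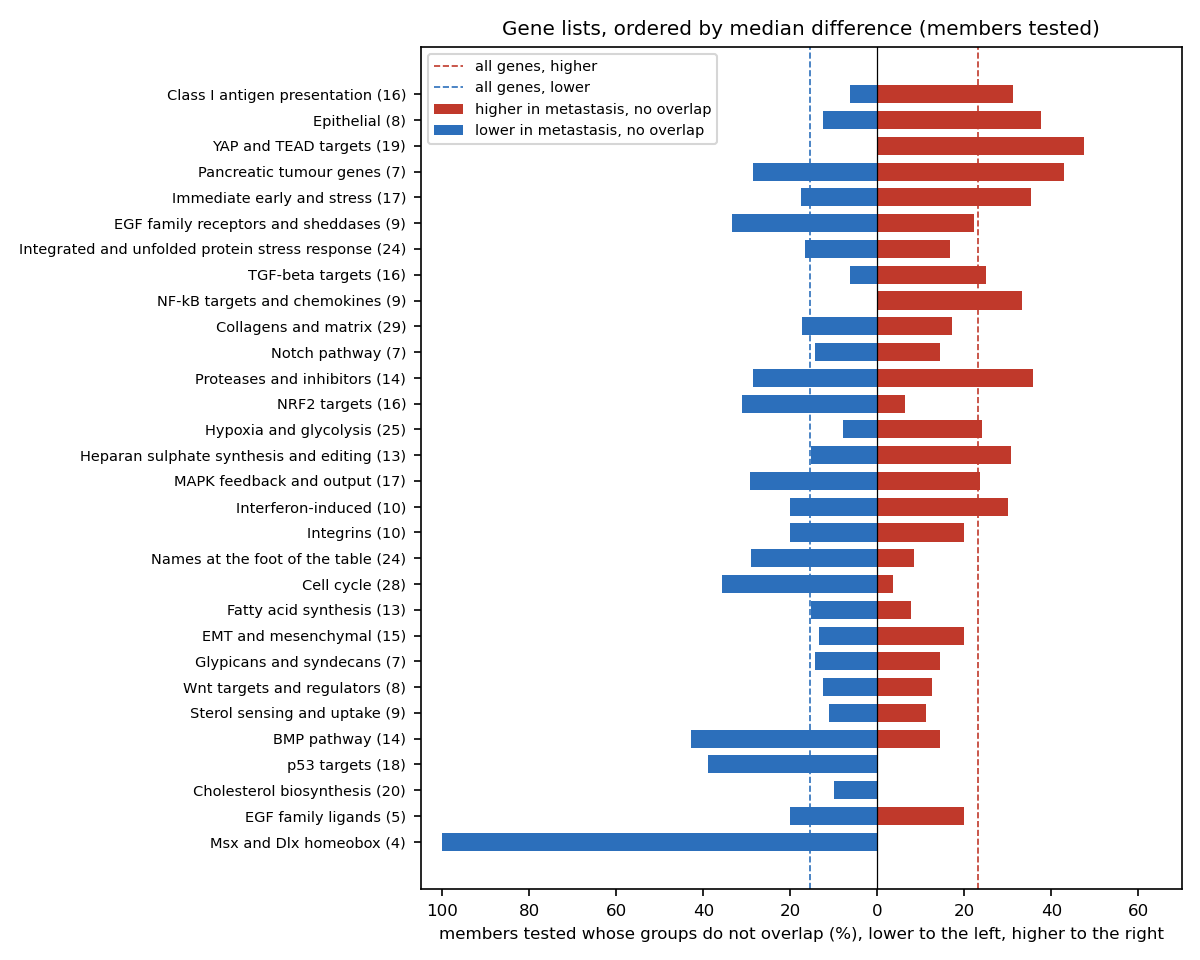
Share of each list's members tested (number in brackets) in which both metastasis values lay above both primary values (red, to the right) or below them (blue, to the left), in percent, ordered by the median difference; dashed lines give the shares over all genes, 23.1% and 15.4%. The lists of markers of other cell types are not drawn. All 4 Msx and Dlx genes are blue, Msx3 by choice, and YAP and TEAD targets have red and no blue.

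The genes most like each of the 3 by Pearson correlation of log2 values over all 10 libraries were described without a test, since the libraries share their split into 2 sets of numbers. Hbegf was most like Vgll4, a cofactor that binds TEAD factors, at 0.99, followed by Plekhg3, Ctif, Tmbim1 and Ap2b1, at 0.96 to 0.94. Gpc4 was most like Pcyt2, at 0.94, followed by Mamstr, Sp3os, Cbr1 and Cebpa. Msx3 was most like Crocc, at 0.92, followed by Ptgr1, Trappc1, Nr2f1 and Cnpy4. Pcyt2 is also among the 12 lower genes in numbers 35 and 36, which enters its correlation with Gpc4.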

How the data were processed

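RNA of cultured cells was extracted with the RNeasy kit and polyA-selected, per the labels' protocols. The deposited file is a single table in which the authors give each library's FPKM per gene. Salmon, edgeR and the build mm8 are named, without roles, per the submitters' processing notes; which program wrote the FPKM is not stated in the sources used here. Of 48516 gene identifiers, 40599 were found with the same version in GENCODE M21, and 99.97% of these lay inside the locus given, so coordinates are of GRCm38. A further 35 lines without an identifier were left out, and 128 entries repeat a symbol, for which the one with the highest mean was named.

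Values were used as log2(FPKM + 1), for genes reaching 1 FPKM in 2 or more of the 4 libraries. Because FPKM is a normalized unit, count models were not used. Tests used limma 3.58.1 in R 4.3.3 (intensity trend, Benjamini-Hochberg adjustment over all 12158 genes, threshold 0.05). The fits were for the 4 libraries, for the other 6 and, for the difference between sets, all 10. Tables and figures were made in Python 3.11.15 (pandas 2.3.3, numpy 2.4.6, matplotlib 3.10.9). Depth was estimated from the smallest values of 742 single-exon genes of at least 3000 bases and limits low genes. The scripts were tested on simulated data. No 2 libraries held identical values.

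Named genes were the 3 markers, the 12 higher and 12 lower genes with a symbol, a mean of at least 2 FPKM and the largest gap between groups, and up to 4 members of each list by gap; list members beyond those were picked for their role after their values were seen. Some of the genes chosen are not reported here. The members, the genes and the lists were chosen with earlier results of these data known. Alternatives were another pseudocount, filters, scalings, leaving out each library and the number as a block.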

Additional observations from a re-analysis of the deposited data

Results flagged for a closer look

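Some genes among the 12 higher and 12 lower moved one way in numbers 35 and 36 and the other way in numbers 25, 38 and 72. They were picked after their values were seen, and the share of all genes that do so was not counted. Of the 12 higher genes 0, and of the 12 lower genes 1, separated the groups of numbers 25, 38 and 72 without overlap in the opposite direction. Plau was higher in metastasis in both pairs of numbers 35 and 36, and lower in all 3 pairs of numbers 25, 38 and 72, where the mean difference was -1.55. The reverse held for Cx3cl1, Colec12 and Plpp3, lower in both pairs of numbers 35 and 36, whose mean differences in numbers 25, 38 and 72 were 0.39, 0.99 and 1.00 with all 3 pairs higher. For these 4 genes the limma test of the difference between the sets, adjusted by Benjamini-Hochberg, did not pass the threshold.

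Snora2b and AL928567.1 were called by that test, though not with the number as a block or with a pseudocount of 0.1, with differences between the sets of 3.31 and -4.66 and limma adjusted p-values of 0.00564 and 0.00254. Both were listed at 0 in all 6 libraries of numbers 25, 38 and 72 and in one group of numbers 35 and 36.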

How the results depend on the processing

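All 25 genes named as markers or as the 12 higher and 12 lower kept their sign under each of the settings that gave a value. Their groups do not overlap, so leaving out a library or blocking by number could not change the sign. The result was therefore largely fixed by the choice of genes and is no separate support. The count with a limma adjusted p under 0.05 in numbers 35 and 36, 3 in all, was 10 with a pseudocount of 0.1, 1 with no filter, 0 when 1 FPKM had to be reached in 5 of the 10 libraries, and 1 to 5 when 1 library was left out, with 1 without primary 35 and 5 without metastasis 35. For numbers 35 and 36, leaving out a library leaves 1 sample in a group, assumed to vary like the other group. In numbers 25, 38 and 72 it was 0 throughout. The difference between the sets, with 2 genes, had 0 with a pseudocount of 0.1 and 1 to 3 when 1 library was left out, with 1 without primary 36. Unadjusted calls were 436 higher and 285 lower, with median ratio scaling 361 higher and 340 lower, and with quantile normalization 337 higher and 349 lower. Without primary 35, an alternative chosen after seeing the data, 4126 genes were higher and 3286 lower without overlap, since fewer samples separate more often.

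The labels give groups the same numbers, but deviations from the group means correlated at 0.13 over the 2 pairs of numbers 35 and 36, and at 0.08, 0.49 and -0.50 for numbers 25, 38 and 72 from the means of each set. From the means over all 10 libraries, which also hold the difference between the sets, they correlated at 0.13 to 0.82, so pairing was not settled. With the number as a block the count was 1 in numbers 35 and 36 and 0 for the difference between the sets.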

Other observations

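A few protein-coding genes were present in 1 of the 4 libraries, with at least 5 FPKM there and under 0.5 FPKM in the other 3. Metastasis 36 had 4, namely Tnc at 16.6 FPKM, which encodes the matrix glycoprotein tenascin-C, the keratin gene Krt7 at 13.3 FPKM, Clca3a2 at 9.11 FPKM and S1pr3, a sphingosine-1-phosphate receptor, at 5.83 FPKM. Metastasis 35 had 2, Ppef1 at 12.1 FPKM and Xlr3c at 6.17 FPKM. Primary 35 had Lum at 30.3 FPKM, and primary 36 had Pnma5 at 10.9 FPKM. The reverse, under 0.5 FPKM in 1 library and at least 5 FPKM in the other 3, was seen in metastasis 36 for 3 genes. These were Serpine2, a protease inhibitor, at 0.333 FPKM, Adgrl3, an adhesion receptor, at 0.415 FPKM, and Myh10, a non-muscle myosin, at 0.126 FPKM. The other 3 libraries had 0 such genes.

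The deposited table ends with 26 gene names without values, a mix of cell cycle, apoptosis and drug-handling genes, of which 24 were tested here, in a list added after the file was seen. In it 2 genes were higher and 7 lower without overlap, with a median difference of -0.08. Nr2f1, a nuclear receptor, had 18.9 and 15.7 FPKM in metastasis 35 and 36 against 34.5 and 24.7 FPKM in primary 35 and 36, and Slc29a1, a nucleoside transporter that takes up gemcitabine, had 177 and 154 FPKM in the metastasis libraries and 212 and 180.3 FPKM in the primary libraries. Casp8, an initiator caspase, had metastasis values of 35.1 and 31.9 FPKM and primary values of 28.8 and 27.5 FPKM.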
